A study of Mus musculus with 5 samples.

Results

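The transcripts of 10 surface proteins that are used to sort blood stem cells were read in 5 mouse libraries. They were taken by gene symbol, as markers of the sort, from the 35976 genes of the count table: Kit, Ly6a, Slamf1, Cd34, Flt3, Cd48, Procr, Esam, Tek and Cd27. Each library was made by Smart-seq2, which amplifies full-length cDNA from few cells, from 30 haematopoietic stem cells (HSCs) of bone marrow of a C57BL/6 mouse. The sort kept cells without lineage markers and without CD34, and with Sca-1, c-kit and CD150. In all, 3 libraries are labelled Ythdf3-/- and 2 are labelled WT, and per the series text each sample is of a different mouse. YTHDF3 binds N6-methyladenosine on cytoplasmic mRNA. The sources used here do not describe the allele, nor the age of the mice.

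The genotype labels are open to doubt, so each library is called by its label, as a replicate of that label. Ythdf3 itself had 2, 339 and 366 counts in replicates 1, 2 and 3 of the Ythdf3-/- label, against 20 and 29 counts in replicates 1 and 2 of the WT label. The series text, moreover, counts 2 knockout and 3 WT samples, the reverse of the sample labels. Higher and lower below refer to the labels alone. The cell type label was checked against its markers: all 12 transcript markers of HSCs, among them Meis1 and Gfi1b, had counts in every library. Some of these counts were few. Fgd5 had 2 and 5 counts in replicates 1 and 3 of the Ythdf3-/- label, and Ctnnal1 had 5 in replicate 1. Of 13 antigens typical of lineage cocktails, 8 had 0 counts in all 5 libraries, among them the T cell genes Cd4, Cd8a and Cd5 and the granulocyte gene Ly6g. Total counts were 6357862, 9076806 and 7016670 in replicates 1, 2 and 3 of the Ythdf3-/- label, and 16650134 and 8968162 in replicates 1 and 2 of the WT label. One count was therefore worth between 0.0601 and 0.157 CPM, the unit of counts scaled to a common library total that is used throughout.

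HSCs share their receptor kinases and adhesion proteins with other cells, so they are sorted by combinations of surface proteins. In the adult mouse, c-kit and Sca-1 together with the absence of lineage antigens define a compartment of stem cells and multipotent progenitors. Within it, stem cells carry CD150 and little CD34, CD48 or FLT3, whereas progenitors gain CD34, CD48 and FLT3 as they lose self-renewal. EPCR, ESAM and TIE2 mark stem cells as well, and all 3 are also proteins of blood vessel endothelium. The sort acts on protein at the cell surface, and the values below are RNA.

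SLAM family genes lie side by side on chromosome 1, where Cd48 (171682009 to 171705258 in GRCm38, the build mm10) and Slamf1 (171767127 to 171801184) are neighbours on the plus strand, 61.9 kb apart with 0 protein-coding genes between them. Kit lies on chromosome 5 (75574916 to 75656722, plus strand). The 250 bases before the RefSeq start of these genes are shown because the sort depends on Kit and Slamf1, while Cd48 is the neighbour of Slamf1 that stem cells lack. The sequences are from RefSeq (GRCm38.p6), 5′ to 3′, with capitals at matches to the 4 motifs named after them. The spans above are of GENCODE, whose starts differ from those of RefSeq, so that the sequences of Slamf1 and Kit reach into them.
Slamf1, chr1:171766882-171767131, plus strand: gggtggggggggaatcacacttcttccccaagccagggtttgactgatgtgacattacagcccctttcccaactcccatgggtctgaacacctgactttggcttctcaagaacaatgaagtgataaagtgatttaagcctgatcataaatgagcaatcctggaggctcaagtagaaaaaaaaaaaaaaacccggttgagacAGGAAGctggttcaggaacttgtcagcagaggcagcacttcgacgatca
Cd48, chr1:171681742-171681991, plus strand: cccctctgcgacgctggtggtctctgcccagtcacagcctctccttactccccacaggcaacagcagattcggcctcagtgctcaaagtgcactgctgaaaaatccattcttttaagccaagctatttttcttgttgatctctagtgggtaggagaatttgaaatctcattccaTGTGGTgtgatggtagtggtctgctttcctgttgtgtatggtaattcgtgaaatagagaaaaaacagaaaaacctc
Kit, chr5:75574737-75574986, plus strand: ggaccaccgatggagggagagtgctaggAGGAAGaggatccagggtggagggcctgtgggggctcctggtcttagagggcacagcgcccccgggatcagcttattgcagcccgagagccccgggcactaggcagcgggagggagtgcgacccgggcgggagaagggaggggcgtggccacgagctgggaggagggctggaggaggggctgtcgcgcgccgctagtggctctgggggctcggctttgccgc
The capitals mark AGGAAG, the core of sites for ETS factors, 49 bases before the RefSeq start of Slamf1 and 222 bases before that of Kit. In Cd48 they mark TGTGGT, the core of sites for RUNX factors, 76 bases before the RefSeq start. Such promoter sequences were at hand for 8 of the 10 genes, and both strands were searched. AGGAAG was present in 3 of the 8 (Slamf1, Kit and Cd34) and in 29.5% of all 32851 promoters of the table. TGTGGT was present in 1 of the 8, Cd48, and in 14.0% of all. CAGATG, an E-box bound by TAL1, was present in 2 of the 8, Flt3 and Cd27, and in 14.4% of all. AGATAA, to which factors of the GATA family bind, was present in 0 of the 8 and in 9.99% of all. No promoter of the 8 held more than 1 match, so no matches overlapped. The promoter of Kit had 70.8% G and C, against 47.2% for Slamf1, 46.0% for Cd48 and a median of 52.4% over all promoters.

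Of the 3 genes whose proteins were selected for, Kit and Ly6a were read in abundance in every library and Slamf1 was all but missing from one. Kit encodes c-kit, the receptor tyrosine kinase for stem cell factor, on which HSC maintenance depends. It stood at 354.7, 243.7 and 540.4 CPM in replicates 1, 2 and 3 of the Ythdf3-/- label, against 562.0 and 254.5 CPM in replicates 1 and 2 of the WT label. The labels overlapped, and the highest and the lowest library were 2.31-fold apart. Means were 379.6 ± 149.9 CPM (SD, n = 3) under the Ythdf3-/- label and 408.2 ± 217.5 CPM (SD, n = 2) under the WT label. The log2 fold change, always given as the Ythdf3-/- label over the WT label, was -0.19 ± 0.47 (SE; edgeR adjusted p = 0.9998). Without WT labelled replicate 1 it was 0.44, and without Ythdf3-/- labelled replicate 2 it was 0.046.

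Ly6a, on chromosome 15 (74994877 to 74998031, minus strand), encodes Sca-1, a small protein held in the membrane by a lipid anchor. It had 1189, 2187 and 2762 counts in replicates 1, 2 and 3 of the Ythdf3-/- label, or 187.0, 240.9 and 393.6 CPM. In replicates 1 and 2 of the WT label it had 1680 and 1070 counts, or 100.9 and 119.3 CPM. Every library labelled Ythdf3-/- lay above both labelled WT, and the same held on the scale of edgeR's TMM factors. The means, 273.9 ± 107.2 CPM (SD, n = 3) under the Ythdf3-/- label and 110.1 ± 13.0 CPM (SD, n = 2) under the WT label, were 2.49-fold apart. Its log2 fold change of 1.22 ± 0.49 (SE) had an unadjusted p of 0.0384, the smallest among the 9 genes tested, and did not pass (edgeR adjusted p = 0.964). It ran between 0.88 and 1.46 on leaving out each library in turn. Of the adjusted values over all the settings run, the lowest was 0.270, in DESeq2.

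Slamf1 encodes CD150, a receptor that binds itself on neighbouring cells. Its counts were 328, 354 and 211 in replicates 1, 2 and 3 of the Ythdf3-/- label, against 482 and 1 in replicates 1 and 2 of the WT label. In CPM these are 51.6, 39.0 and 30.1 under the Ythdf3-/- label, against 28.9 and 0.112 under the WT label. The single count of WT labelled replicate 2 has a 95% Wilson interval of 0.0197 to 0.632 CPM. The sort required CD150 on every cell of that library too. In CPM the labels did not overlap, but by a narrow margin, and after scaling by TMM factors they overlapped, with 29.1 CPM in Ythdf3-/- labelled replicate 3 and 29.6 CPM in WT labelled replicate 1. Its log2 fold change of 1.41 (SE 2.06, edgeR adjusted p = 0.9998) moved to 8.19 without WT labelled replicate 1 and 0.44 without WT labelled replicate 2.

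**Figure D1:**
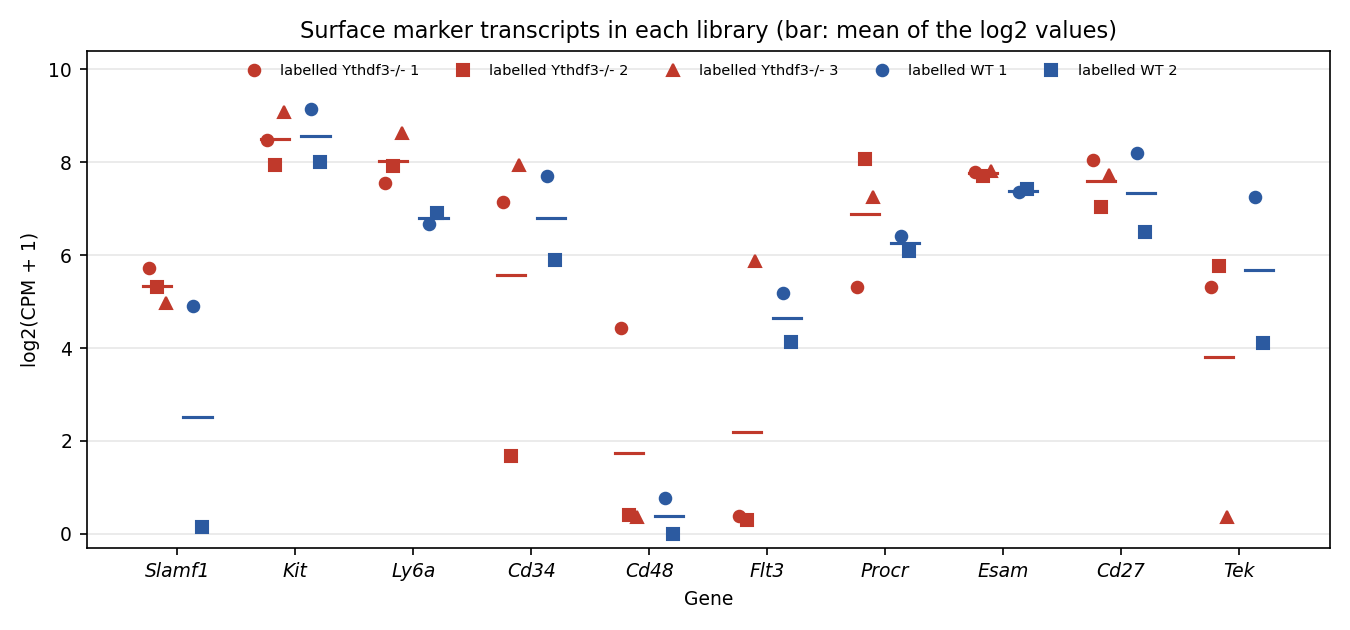
Each point is 1 library (shape: replicate number; red: labelled Ythdf3-/-, blue: labelled WT), the vertical axis is log2(CPM + 1), and bars are means of these values. Esam has its 5 points closest together, and the points of Kit, Cd27 and Ly6a each span at most 1.95 log2 units. Slamf1, Cd34, Cd48, Flt3 and Tek each have at least 1 point near the foot.

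Cd34, the gene of the sialomucin that the sort selected against, was read with 522 counts or more in 4 of the 5 libraries. It stands on chromosome 1 (194938819 to 194961279, plus strand). Its counts were 891, 20 and 1709 in replicates 1, 2 and 3 of the Ythdf3-/- label, against 3455 and 522 in replicates 1 and 2 of the WT label. This gives 140.1, 2.2 and 243.6 CPM under the Ythdf3-/- label, against 207.5 and 58.2 CPM under the WT label. Ythdf3-/- labelled replicate 2 stood apart from the rest, with a 95% Wilson interval of 1.43 to 3.40 CPM, and the highest library exceeded it 110.5-fold. Between the labels the log2 fold change was -0.13 ± 1.34 (SE; edgeR adjusted p = 0.9998), moved to 0.45 without that library and 0.99 without WT labelled replicate 1. Of the exonic bases of Cd34, 2.03% are shared with the overlapping gene Gm16897, which had 99, 20 and 254 counts under the Ythdf3-/- label and 671 and 3 under the WT label. Whether counting used strand is not given in the sources used here, so reads from the shared bases cannot be assigned.

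Transcripts of the progenitor protein FLT3 were frequent in some of the libraries and at a few counts in the others. Those of CD48, also a progenitor protein, reached 131 counts in 1 library and at most 12 in any other. Flt3, on chromosome 5 (147330741 to 147400489, minus strand), encodes the receptor tyrosine kinase for FLT3 ligand, which lymphoid and myeloid progenitors use. It had 2, 2 and 403 counts in replicates 1, 2 and 3 of the Ythdf3-/- label, against 585 and 147 in replicates 1 and 2 of the WT label. The single library labelled Ythdf3-/- with Flt3 in quantity, replicate 3, had the highest level of all at 57.4 CPM, against 35.1 and 16.4 CPM under the WT label. The other two had 0.315 and 0.220 CPM, with upper 95% bounds of 1.15 and 0.803 CPM. In the fit, the log2 fold change of -0.52 (SE 2.44, edgeR adjusted p = 0.9998) moved to -6.59 without Ythdf3-/- labelled replicate 3. It moved to 0.10, 0.067 and 0.078 without Ythdf3-/- labelled replicates 1 and 2 and WT labelled replicate 1, each in turn.

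Cd48 encodes a lipid-anchored ligand of CD244 and is the only one of the 10 genes that failed the filter on low counts. It had 131, 3 and 2 counts in replicates 1, 2 and 3 of the Ythdf3-/- label, against 12 and 0 in replicates 1 and 2 of the WT label. Thus 20.6 CPM was read in Ythdf3-/- labelled replicate 1, and at most 0.721 CPM in any other. The 0 counts of WT labelled replicate 2 allow up to 0.335 CPM. With no filter its log2 fold change was 4.14 ± 4.58 (SE; edgeR adjusted p = 0.888). Ythdf3-/- labelled replicate 1 also had the most transcripts of B lymphoid markers, whose 7 genes summed to 1258 CPM there, against 217.9 and 95.9 CPM in the others of its label and 538.4 and 56.5 CPM under the WT label. Its T and NK cell markers summed to 93.1 CPM, against 56.8 and 14.1 CPM in the others of its label and 0.841 and 10.3 CPM under the WT label; 2 of these 5 genes, Cd3d and Gzma, were at 0 in all libraries. Their part in the Cd48 counts was not tested. In bulk samples, fewer cells of a type and less RNA per cell cannot be told apart.

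EPCR, ESAM and TIE2, further proteins of the stem cell surface, ranged from the steadiest to one of the least steady transcripts of the 10. Procr, on chromosome 2 (155751117 to 155755471, plus strand), encodes EPCR, the endothelial receptor for protein C. It stood at 38.8, 265.4 and 150.9 CPM in replicates 1, 2 and 3 of the Ythdf3-/- label, against 84.9 and 67.3 CPM in replicates 1 and 2 of the WT label. The WT-labelled libraries lay inside the range of the others. Its log2 fold change was 0.91 ± 0.82 (SE; edgeR adjusted p = 0.9998). It moved to 0.22 without Ythdf3-/- labelled replicate 2 and 1.40 without Ythdf3-/- labelled replicate 1.

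Esam, on chromosome 9 (37528078 to 37538319, plus strand), encodes an adhesion molecule of endothelial tight junctions, platelets and HSCs. It had 221.9, 207.2 and 224.5 CPM in replicates 1, 2 and 3 of the Ythdf3-/- label, against 162.3 and 170.7 CPM in replicates 1 and 2 of the WT label. The labels did not overlap, also after TMM scaling, and the highest library exceeded the lowest 1.38-fold. Means were 217.9 ± 9.30 CPM (SD, n = 3) under the Ythdf3-/- label and 166.5 ± 5.96 CPM (SD, n = 2) under the WT label. In the fit over all genes, which shares its estimate of spread between them, the log2 fold change of 0.30 had an SE of 0.41 (edgeR adjusted p = 0.9998). The spread of Esam between libraries of one label, an SD of 0.06 in log2(CPM + 1), was undercut by 10 of the 11146 genes tested. Among the 2348 genes with a mean of at least 100 CPM it was undercut by 6, and their median SD was 0.58.

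Tek, on chromosome 4 (94739289 to 94874976, plus strand), encodes TIE2, the receptor tyrosine kinase for angiopoietins. It had 245, 485 and 2 counts in replicates 1, 2 and 3 of the Ythdf3-/- label, against 2538 and 145 in replicates 1 and 2 of the WT label. These are 38.5, 53.4 and 0.285 CPM, against 152.4 and 16.2 CPM. The labels overlapped, the highest and the second lowest library being those labelled WT, and the means were 30.8 ± 27.4 CPM (SD, n = 3) under the Ythdf3-/- label and 84.3 ± 96.4 CPM (SD, n = 2) under the WT label. Between the labels the log2 fold change of -1.50 (SE 1.71, edgeR adjusted p = 0.9998) moved to 0.81 without WT labelled replicate 1 and -2.35 without WT labelled replicate 2.

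Endothelium shares Tek, Esam and Procr, so its other genes were read beside them. Of 9 endothelial markers, 4 had 0 counts in all 5 libraries: Cdh5 (VE-cadherin), Kdr and Flt1 (VEGF receptors) and Plvap. The summed level of the list ran from 143.4 to 333.8 CPM under the Ythdf3-/- label and from 71.7 to 225.3 CPM under the WT label. Egfl7, which HSCs also express, averaged 140.5 and 124.2 CPM under the Ythdf3-/- and WT labels and was the largest part of it. Pecam1, which HSCs and platelets also express, had 2, 41 and 682 counts in replicates 1, 2 and 3 of the Ythdf3-/- label, against 769 and 2 in replicates 1 and 2 of the WT label, where replicate 1 had the highest Tek. Stab2 had 137 counts in Ythdf3-/- labelled replicate 1 and at most 1 in any other. Cldn5 had 507 counts in Ythdf3-/- labelled replicate 3, where Tek had 2, and at most 19 counts in any other.

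Cd27, on chromosome 6 (125232622 to 125237010, minus strand), encodes a receptor of the TNF receptor family that HSCs, progenitors and lymphocytes carry. It stood at 264.1, 129.6 and 209.9 CPM in replicates 1, 2 and 3 of the Ythdf3-/- label, against 291.7 and 89.3 CPM in replicates 1 and 2 of the WT label. Both the highest and the lowest library were labelled WT, and the log2 fold change was 0.0045 ± 0.59 (SE; edgeR adjusted p = 0.9998). It ran from -0.57 without WT labelled replicate 2 to 1.04 without WT labelled replicate 1. Of its exonic bases, 5.54% are shared with the microRNA gene Mir8113.

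**Figure D2:**
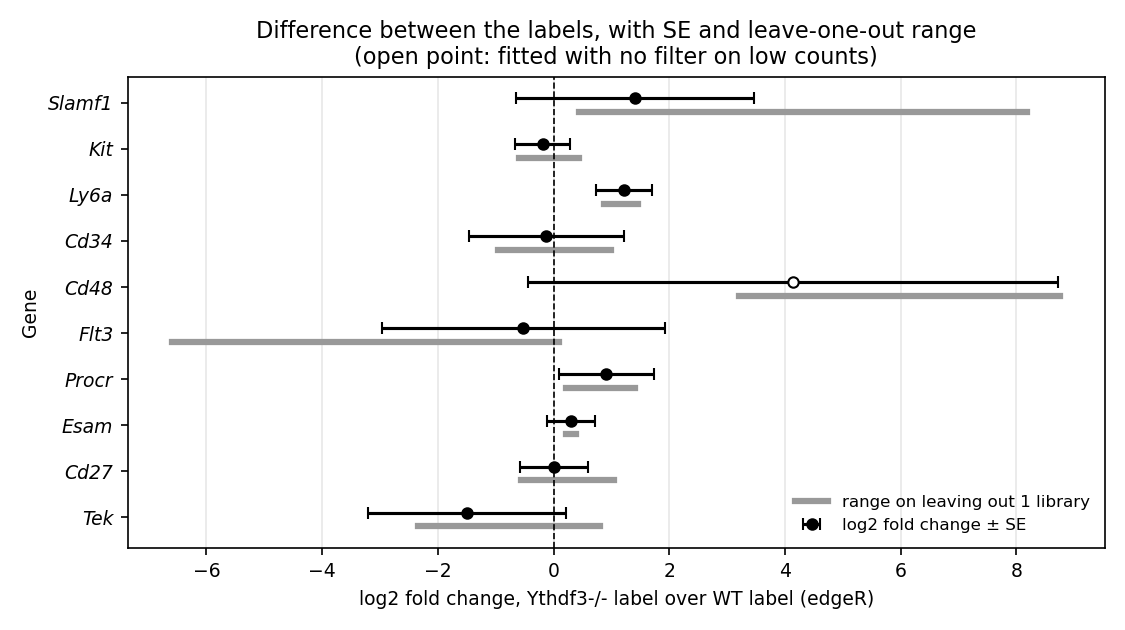
Points are log2 fold changes of the Ythdf3-/- label over the WT label with bars of 1 SE, and grey bars span the values on leaving out each library in turn. The grey bar of Flt3 runs from -6.59 to 0.10 and that of Slamf1 from 0.44 to 8.19, whereas that of Esam runs from 0.22 to 0.39.

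None of the 10 genes passed between the labels, in a comparison where the edgeR test called 0% of 11146 genes higher and 0% lower. The background for an unadjusted p under 0.05 was 2.11% of genes higher and 2.75% lower (235 and 306 genes), and 1 of the 9 genes tested here, Ly6a, was in that range. DESeq2 called 2.95% of 13469 genes higher and 1.46% lower, limma voom called 0 genes, and neither called any of the markers it tested, 10 in DESeq2 and 9 in limma voom. Without WT labelled replicate 2 and Ythdf3-/- labelled replicate 1, the libraries richest in erythroid transcripts, none of the 9 passed either. That fit leaves 1 library labelled WT. The 11 erythroid markers summed to 36741, 2195 and 1973 CPM in replicates 1, 2 and 3 of the Ythdf3-/- label, against 2630 and 3195 CPM in replicates 1 and 2 of the WT label. These sums rest on different genes. In Ythdf3-/- labelled replicate 1 most was globin, with Hba-a1 alone at 18524 CPM. Car2 made up most of each other sum, at 1743 to 2596 CPM. Gata1 had 1, 2 and 1 counts under the Ythdf3-/- label, against 6 and 1061 under the WT label. In CPM, libraries of the labels did not overlap for Ly6a, Esam and Slamf1, though Slamf1 overlapped after TMM scaling. They were higher under the Ythdf3-/- label, against a background in CPM of 9.74% higher and 11.0% lower among all genes tested. The sums of the monocyte and macrophage markers, and of the T and NK cell markers given above, also separated the labels in that direction. The 7 monocyte and macrophage genes summed to 1095, 736.1 and 831.6 CPM in replicates 1, 2 and 3 of the Ythdf3-/- label. Under the WT label they summed to 459.8 and 463.6 CPM in replicates 1 and 2. Lyz2 made up most of each of these sums. None of the 7 was at 0 in all libraries, and 0 of the 5 tested passed. Gene by gene, 2 of these 5 did not overlap in that direction, and 1 of the 5 had a lower fitted level. C1qa overlapped, with 213, 1 and 164 counts under the Ythdf3-/- label and 8 and 0 under the WT label. Csf1r had 0 counts under the Ythdf3-/- label, against 12 and 0. Of the T and NK cell markers, Nkg7 overlapped, with 1.14 CPM in Ythdf3-/- labelled replicate 3 and 2.12 CPM in WT labelled replicate 2. C1qc, a complement gene of macrophages, had 364, 298 and 259 counts under the Ythdf3-/- label, against 10 and 0 under the WT label, and Lyz2, a lysozyme gene of myeloid cells, had 1004, 672.2 and 614.3 CPM under the Ythdf3-/- label, against 433.6 and 416.0 CPM under the WT label. The part of these transcripts in the values of Ly6a, Esam and Slamf1 was not tested. The 9 genes tested had a median log2 fold change of 0.0045 and all genes tested one of -0.06.

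**Figure D3:**
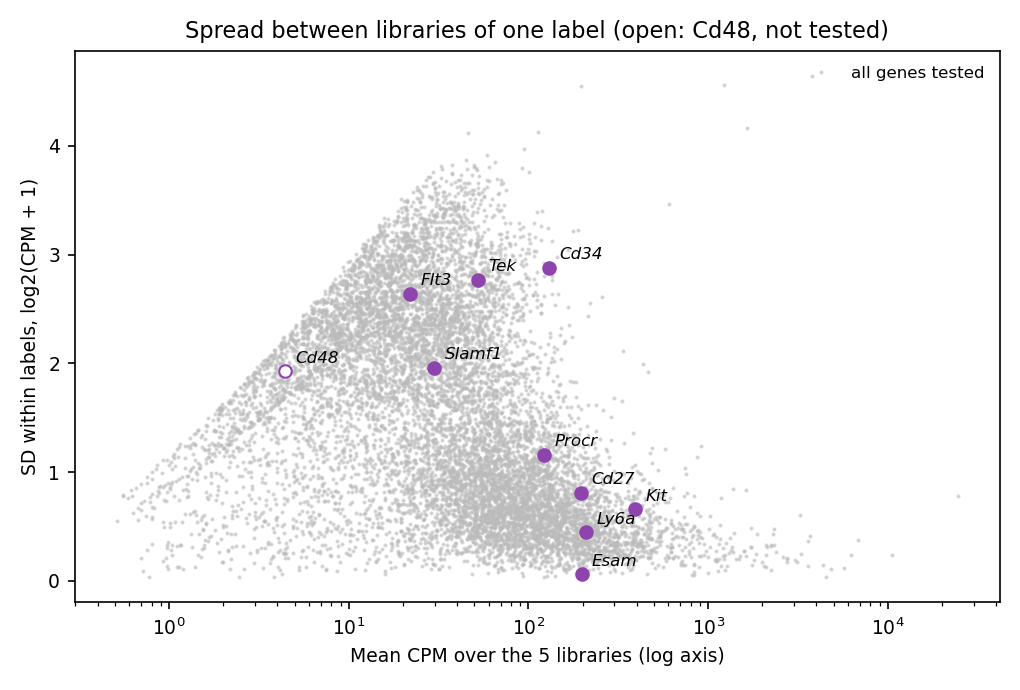
The horizontal axis is the mean CPM over the 5 libraries on a log scale, and the vertical axis is the SD of log2(CPM + 1) between libraries of one label, for all genes tested (grey) and the 10 markers (purple). Esam sits at the lower edge with an SD of 0.06 and Cd34 near the upper edge for its level with an SD of 2.88.

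The markers differed widely in how steady they were between libraries of one label, and of those selected for, Ly6a and Kit were among the steady ones and Slamf1 was not. SDs of log2(CPM + 1) within labels were 0.06 for Esam, 0.45 for Ly6a, 0.66 for Kit and 0.81 for Cd27, and 1.16 for Procr. They were 1.93 for Cd48, 1.96 for Slamf1, 2.64 for Flt3, 2.77 for Tek and 2.88 for Cd34. The median over the 9 tested was 1.16 and over all genes tested 1.38. A level of 3 counts or fewer in one library together with 100 or more in another was found for 3 of the 9 genes tested (Slamf1, Flt3 and Tek), against 33.5% of the 11146 tested in all. With Cd48 it was found for 4 of the 10, against 41.7% of all genes that had 100 or more counts in a library. The libraries with these gaps differed: 1, 2 and 2 of the 10 genes had at most 3 counts in replicates 1, 2 and 3 of the Ythdf3-/- label, and 0 and 2 in replicates 1 and 2 of the WT label. Cd48, which was not among the genes tested, is 1 of those wherever 2 are given. Among all genes tested the shares at most 3 counts were 19.2%, 14.3% and 14.4%, against 7.35% and 12.6%, lowest in the most deeply sequenced library. Together the 10 genes took 0.132%, 0.118% and 0.185% of counts in replicates 1, 2 and 3 of the Ythdf3-/- label, and 0.163% and 0.0792% in replicates 1 and 2 of the WT label.

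Levels were compared between genes per kb of the longest coding transcript in GENCODE M21. Ly6a was highest at 218.2 ± 123.1 CPM per kb (SD, n = 5), and first in 4 of the 5 libraries. Below it came Cd27 at 126.3, Esam at 105.8, Procr at 76.1, Kit at 74.6 and Cd34 at 51.0 CPM per kb. A lower tier held Tek at 11.2, Slamf1 at 11.1, Flt3 at 5.99 and Cd48 at 3.70 CPM per kb. The ranges over the libraries overlapped between every pair of neighbours in this order, and Kit exceeded Cd34, its next neighbour down, within each of the 5 libraries. Procr stood above Kit in 1 of the 5, Ythdf3-/- labelled replicate 2, and Tek above Slamf1 in 2 of the 5, so these means do not give the order within most libraries. Slamf1, whose protein the sort required, was thus below Cd34, whose protein it refused, in 4 libraries per length, with Ythdf3-/- labelled replicate 2 as the exception. Ly6a stood at the 96.6th percentile of all genes with a count and a length, Slamf1 at the 55.6th and Cd48 at the 32.6th. With the length of all annotated exons in place of the longest transcript, the mean of Kit was 43.9, that of Esam 68.8, that of Cd34 17.9 and that of Slamf1 4.86 CPM per kb. Cd34 was then nearer to Tek, at 11.1 CPM per kb, and Flt3, at 3.55, came below Cd48, at 3.69.

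**Figure D4:**
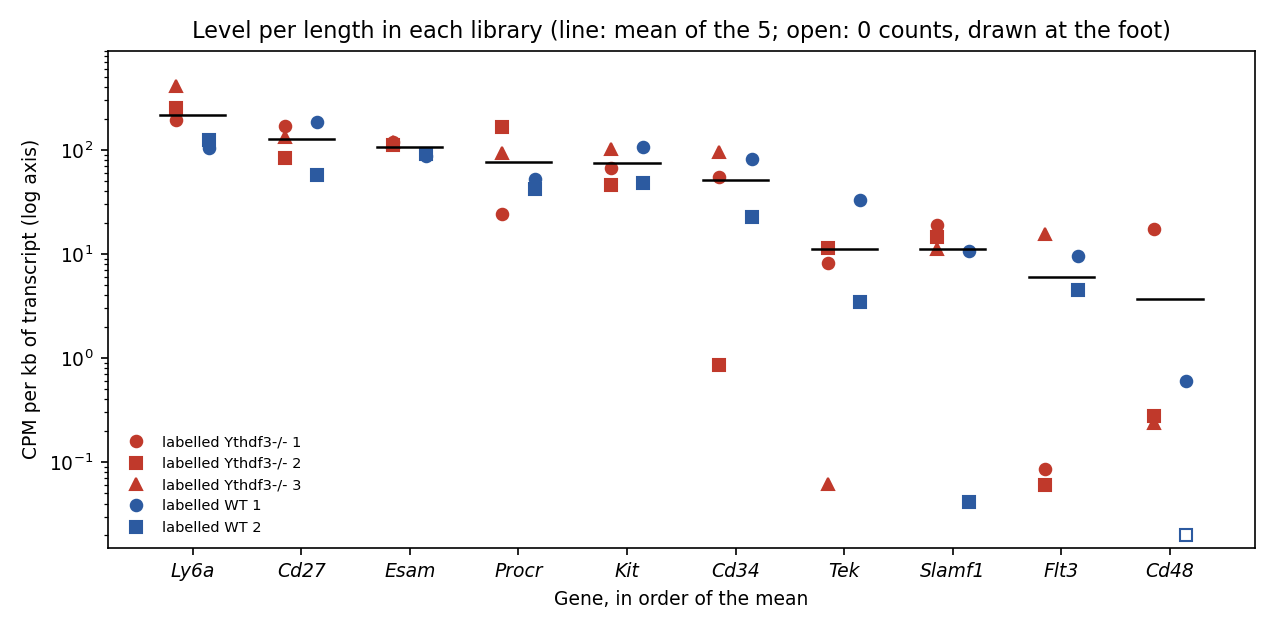
The vertical axis is CPM per kb of transcript on a log scale for each library (red: labelled Ythdf3-/-, blue: labelled WT, shape: replicate number), and lines are means of the 5 libraries. Ly6a to Cd34 average from 218.2 down to 51.0 CPM per kb and Tek to Cd48 from 11.2 down to 3.70 CPM per kb.

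Within the SLAM family, Cd84, an adhesion receptor of platelets and other blood cells, was read in all libraries, and most others in 1 library. It had 999, 1913 and 146 counts in replicates 1, 2 and 3 of the Ythdf3-/- label, against 835 and 417 in replicates 1 and 2 of the WT label (log2 fold change 1.35, edgeR unadjusted p of 0.208). Cd244, the receptor for CD48, had 186 counts in Ythdf3-/- labelled replicate 1 and at most 1 elsewhere. Slamf6 and Slamf7, of lymphocytes and NK cells, had 187 and 123 counts in that same library and at most 14 and 15 in any other, so that Cd48, Cd244, Slamf6 and Slamf7 were all highest there. Slamf8 had 266 counts in Ythdf3-/- labelled replicate 3 and at most 9 elsewhere, and Slamf9 had 0 in all. Only 2 of the 9 family members in the table were tested, both with higher fitted levels under the Ythdf3-/- label, and 0 passed.

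Among 10 Ly6 genes, 6 had 0 counts in every library and Ly6c2 had 2 counts in all. Ly6e, a relative of Sca-1, was read in every library, with 685.9 and 732.3 CPM on average under the Ythdf3-/- and WT labels, a log2 fold change of -0.18. Ly6d, a marker of lymphoid progenitors, had 1068, 4 and 1 counts in replicates 1, 2 and 3 of the Ythdf3-/- label, against 1006 and 0 in replicates 1 and 2 of the WT label. Ly6 genes are close in sequence, and how reads matching more than 1 of them were counted is not given in the sources used here. Of the 3 tested, 0 passed.

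Among ligands and partners of the 10 proteins, several ligands had no counts, and Angpt1 was read in quantity in every library. Kitl (stem cell factor), Cd70 (the ligand of CD27) and Proc (protein C) had 0 counts in all 5 libraries. Angpt1, the ligand that activates TIE2, averaged 588.9 CPM under the Ythdf3-/- label and 366.2 CPM under the WT label. Its 3 libraries labelled Ythdf3-/- lay above both labelled WT (log2 fold change 0.60, edgeR unadjusted p of 0.105). Flt3l, the ligand of FLT3, had 20, 447 and 146 counts in replicates 1, 2 and 3 of the Ythdf3-/- label, against 612 and 806 in replicates 1 and 2 of the WT label. Tie1, the partner receptor of TIE2, averaged 33.3 and 46.3 CPM under the Ythdf3-/- and WT labels and was present in all libraries, Ythdf3-/- labelled replicate 3 included, where it had 82 counts. Traf2, which couples receptors of the TNF family to NF-kB, had 377, 5 and 309 counts, against 3486 and 563, a log2 fold change of -2.05 that moved to -1.00 without WT labelled replicate 1. Of the 9 genes of this list that were tested, 3 had a higher and 6 a lower fitted level under the Ythdf3-/- label, 0 passed, and the median log2 fold change was -0.47 against -0.06 over all genes tested.

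**Figure D5:**
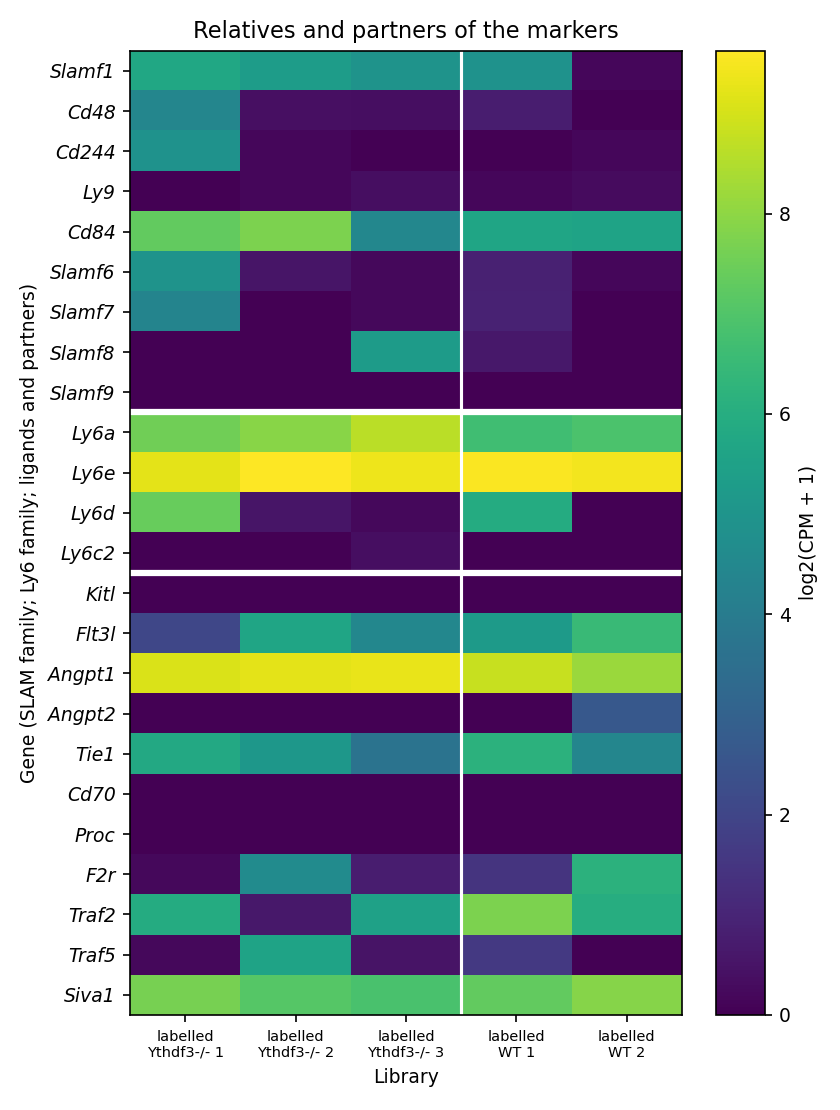
Colour gives log2(CPM + 1) in each library (columns) for relatives of Slamf1, Cd48 and Ly6a and for ligands and partners of the 10 proteins (rows). Cd48, Cd244, Slamf6 and Slamf7 are bright only in the column labelled Ythdf3-/- 1, while Angpt1, Ly6e and Siva1 are bright in all columns.

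Of the signal relays behind c-kit, FLT3 and TIE2, 28 of 28 listed genes passed the filter and were tested. Of them 12 had a higher and 16 a lower fitted level under the Ythdf3-/- label, with a median log2 fold change of -0.14 against -0.06 over all genes tested, and 0 passed. Stat3, a transcription factor of cytokine signalling, had 2471, 4980 and 1833 counts in replicates 1, 2 and 3 of the Ythdf3-/- label, against 3750 and 792 in replicates 1 and 2 of the WT label. Its log2 fold change was 1.28 and its edgeR unadjusted p 0.0443. The small GTPase gene Hras had 182, 544 and 2 counts, against 0 and 2. Dok2, an adaptor that restrains receptor tyrosine kinases, had 585, 1451 and 902 counts in replicates 1, 2 and 3 of the Ythdf3-/- label, against 12 and 8 in replicates 1 and 2 of the WT label. All libraries labelled Ythdf3-/- lay far above both labelled WT, and its log2 fold change of 7.19 ± 1.09 (SE), between 6.97 and 7.41 on leaving out each library in turn, did not pass (edgeR adjusted p = 0.912).

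Other surface proteins used on stem cells had 19 of 23 genes tested, 11 with a higher and 8 with a lower fitted level under the Ythdf3-/- label, a median log2 fold change of 0.22 and 0 past the threshold. The tetraspanin gene Cd9 averaged 311.1 and 182.8 CPM under the Ythdf3-/- and WT labels, its 3 libraries labelled Ythdf3-/- all above both labelled WT (log2 fold change 0.69). Itgb3, an integrin chain of platelets and HSCs, had 1, 1 and 108 counts under the Ythdf3-/- label, against 1182 and 32 under the WT label, and its log2 fold change of -2.92 moved to 0.39 without WT labelled replicate 1. Among 20 further progenitor surface genes 12 were tested, 5 with a higher and 7 with a lower fitted level, and 0 passed. Cd24a, a marker of progenitors and erythroid and B lineage cells, averaged 139.5 CPM under the Ythdf3-/- label and 295.1 CPM under the WT label with no overlap. Its log2 fold change of -1.18 moved to -0.62 without WT labelled replicate 2. Il3ra, a chain of the interleukin 3 receptor, had 1, 1 and 0 counts, against 394 and 19. Car1 had 4093 counts in WT labelled replicate 2 and at most 24 in any other. Slamf1 had 1 count in that same library, and the part of erythroid transcripts in the values above was not tested.

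The genes whose pattern over the 5 libraries was most like that of each marker were found by the mean absolute difference of centred log2(CPM + 1). For Kit it was Utp6, at 0.053, for Esam Uchl5 at 0.062, and for Cd27 Uqcrc1 at 0.090. For Ly6a it was Fam208a at 0.106, for Slamf1 Hddc3 at 0.097, and for Flt3 Paxip1 at 0.090. Cd34 came closest to Zfp790 at 0.157, Procr to Anxa9 at 0.171 and Tek to Ccdc125 at 0.307. These are descriptions over 5 libraries. Among the 10 markers themselves, Kit and Cd27 were most alike, with a difference of 0.32.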

How the data were processed

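The authors deposited a table of raw counts by gene symbol, from 5 libraries of paired 150-bp reads. HISAT2 2.2.1, HTSeq 0.12.4 and mm10 stand in the submitters' processing notes; the annotation, strand setting and treatment of reads with several matches are unknown here. The quasi-likelihood test of edgeR 4.0.16 was run on the counts of all genes in R 4.3.3 (default filter on low counts by group, TMM factors, robust fit, no covariate), with Benjamini-Hochberg adjustment at 0.05 over 11146 genes. Standard errors were derived from the F statistic. DESeq2 1.42.0, limma 3.58.1 voom, other scalings and filters, a replicate block and leaving out libraries were alternatives. CPM are deposited counts divided by library totals. Intervals and floors (a count of 0 allows up to 3 counts) cover counting error only, since these reads carry no molecular identifiers. Libraries are separate mice per the series text.

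The 10 genes and the 16 other lists were chosen with earlier results of these data known. Named were the 10 genes and Ythdf3, from each other list the 3 tested genes with the smallest unadjusted p, and for each tested marker the genes of at least 10 CPM most like it. Not every gene so named is discussed, and others in those lists were named after their values were seen. Coordinates and transcript lengths are from GENCODE M21 on GRCm38. Protein sequences were not used here.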

Additional observations from a re-analysis of the deposited data

How the results depend on the processing

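None of the 9 markers tested passed under any of the 14 alternatives, nor did Cd48 in the 4 fits that tested it. Numbers of genes called over the whole table did move: against 0 in each direction, the unfiltered edgeR fit called 13 higher and 8 lower under the Ythdf3-/- label, and DESeq2 398 and 196. Leaving out each library in turn gave 0 higher and between 0 and 1 lower. The cause was not tested. Whether the replicate numbers pair the libraries could not be decided. Deviations of same-numbered libraries correlated at -0.0043 and 0.00939. The deviations of the 2 WT-labelled libraries mirror each other, so the values with either one differ only in sign. With the replicate block 0 genes were called, as in the main fit. Of 129 values of the 10 genes' log2 fold changes under alternatives, 115 kept their direction and 14 turned round. On leaving out 1 library the log2 fold change ran from -0.60 to 0.44 for Kit, -0.96 to 0.99 for Cd34, -6.59 to 0.10 for Flt3, -0.57 to 1.04 for Cd27 and -2.35 to 0.81 for Tek. Limma voom and the replicate block gave -2.26 and -2.67 for Cd34, -4.02 and -6.52 for Flt3, 3.81 and 4.19 for Slamf1, and -3.07 and -0.21 for Tek. The value of Cd27, 0.0045, was also -0.018 with no filter, -0.10 with limma voom and -0.84 without WT labelled replicate 2 and Ythdf3-/- labelled replicate 1. Scaling moved the median of all genes by at most 0.084 on the log2 scale. The common biological coefficient of variation, a single value for all genes, was 1.26. SDs of log2(CPM + 1) within labels ran from 0.06 for Esam to 2.88 for Cd34. Differences of several-fold therefore lay within the spread between libraries for Cd34, but not for Esam. Where a WT-labelled library is left out, the lone one is assumed to vary like the others.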
